A study of Mus musculus with 9 samples.

Results

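Nr3c1, Fkbp5, Tsc22d3, Klf9, Sgk1, Mt1 and Mt2 were followed across the 9 libraries of the series. The set was a fixed list of 7 genes among the 53801 in the count tables, holding the glucocorticoid receptor, 4 genes that it is known to activate and a pair of metallothionein genes, and each symbol matched 1 Ensembl identifier. RNA was sequenced from cells sorted as CD11c-Ly6G-CD11b+CD45high, the monocyte/macrophage gate of the study, taken from male C57BL/6J mice 9 weeks old. The 3 stroke brain libraries came from the ipsilesional hemisphere 5 days after permanent dMCAO (occlusion of the distal branch of the left middle cerebral artery, with ligation of the left common carotid artery), and each was a pool of 5 mice. The 3 stroke blood libraries came from mice with the same surgery and the 3 sham blood libraries from sham-operated mice, with 1 mouse in each library. The day on which sham blood was taken was not given in the sources used here, and no transgene and no treatment with a glucocorticoid or a metal is named in the methods. Brain cells were released with a heated enzymatic dissociation and a Percoll gradient, whereas blood cells were separated on Ficoll, so that tissue and procedure cannot be told apart in any comparison of brain with blood. In bulk libraries, fewer cells of a type and less RNA per cell cannot be told apart either.

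Glucocorticoid hormones, of which corticosterone is the main one in mice, bind the receptor encoded by Nr3c1, which waits in the cytoplasm in a complex with heat shock proteins and immunophilins, moves to the nucleus and binds DNA at glucocorticoid response elements (GREs). Fkbp5 encodes an immunophilin of that complex that lowers hormone binding, Tsc22d3 encodes the anti-inflammatory protein GILZ, Klf9 a zinc-finger repressor, and Sgk1 a kinase of ion transport and cell survival. Metallothioneins are small cysteine-rich proteins that hold zinc and copper, and their genes are switched on by metals through the transcription factor Mtf1 at metal response elements (MREs), and by glucocorticoids.

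Promoter sequence was at hand for 6 of the 7 genes, as 13 stretches of 300 bases around RefSeq start sites (250 bases before to 50 after, GRCm38.p6), and Nr3c1 had none in the set used. Both strands were searched for the full GRE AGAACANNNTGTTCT, for a loose GRE GNACANNNTGTNC that takes in the full one, for its single arm AGAACA, which also lies inside the full one, and for the MRE core TGCNCNC. The 3 stretches below are shown because they hold the most complete matches, with the matches in capitals: the MRE core and the loose GRE in Mt1, the MRE core in Mt2 and the full GRE in Sgk1. The Mt1 stretch lies on the plus strand at chr8:94178889-94179088, the Mt2 stretch on the plus strand at chr8:94172418-94172617 and the Sgk1 stretch on the plus strand at chr10:21993670-21993769, all upstream of a start site.
Mt1: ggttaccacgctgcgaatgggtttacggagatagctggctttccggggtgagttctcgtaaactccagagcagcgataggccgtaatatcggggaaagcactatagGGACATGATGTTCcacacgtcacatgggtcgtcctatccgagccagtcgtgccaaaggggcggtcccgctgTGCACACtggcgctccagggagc
Mt2: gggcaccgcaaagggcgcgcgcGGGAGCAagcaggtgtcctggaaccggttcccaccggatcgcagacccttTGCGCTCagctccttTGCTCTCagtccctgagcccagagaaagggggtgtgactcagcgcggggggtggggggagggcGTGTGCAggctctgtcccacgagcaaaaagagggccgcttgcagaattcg
Sgk1: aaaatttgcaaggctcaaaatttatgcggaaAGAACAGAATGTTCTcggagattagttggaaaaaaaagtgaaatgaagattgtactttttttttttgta

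The Sgk1 match ran from 189 to 175 bases before the start site at chr10:21993890, 1 of 6 Sgk1 start sites in the set, and it was 1 of only 3 full GREs among 32851 promoters (0.00913%). The loose GRE, present in 0.475% of promoters, lay between 94 and 82 bases before the Mt1 start site. The MRE core was far more common, with at least 1 match in 51.0% of promoters, 3 or more in 7.1% and 4 or more in 2.3%. Mt2 held 6 such cores and Mt1 held 3, of which 2 lay after the start site. Of the 6 Sgk1 promoters, 1 also held 3 MRE cores, 1 held 1 and the others held 0. Fkbp5 and 1 of the 3 Tsc22d3 promoters held 1 MRE core each, and Klf9 held none of the motifs in this window. Fkbp5, Tsc22d3 and Klf9 had no GRE of either form in these 300 bases, which says nothing of sites farther away. The counts of MRE cores in Mt1 and Mt2 likewise hold only for this window and the start site taken.

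**Figure D1:**
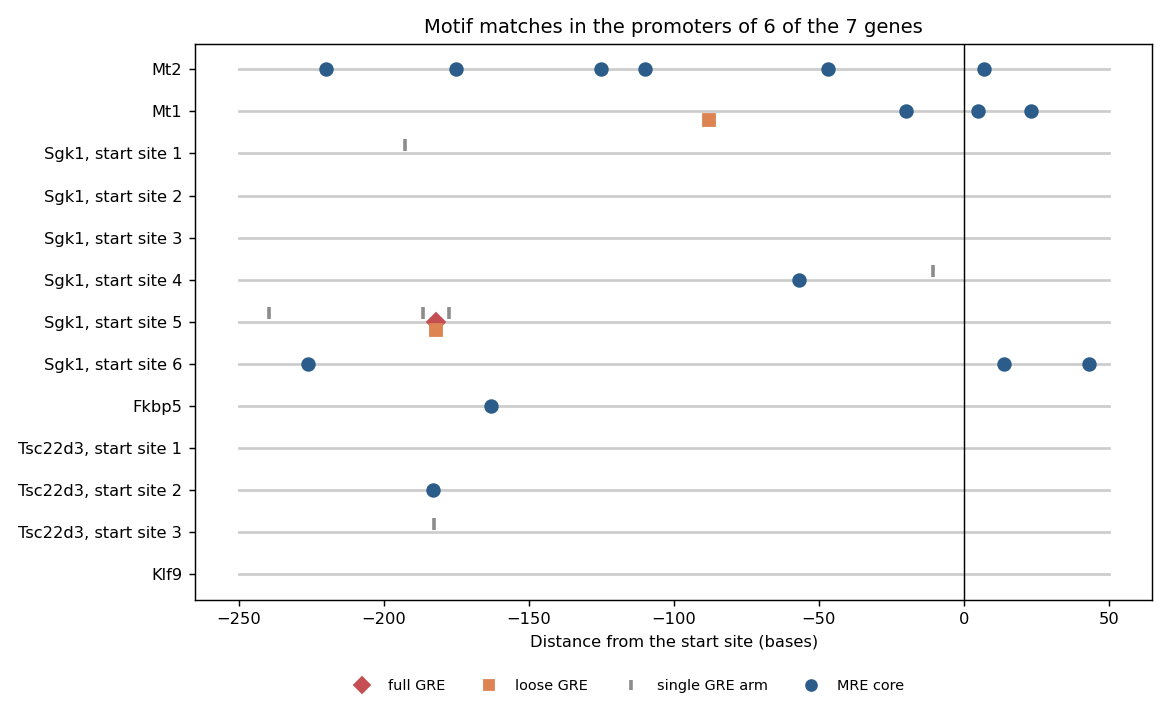
Positions of motif matches in 13 promoters of 6 genes, with the distance in bases from the RefSeq start site on the x axis and 1 line for each promoter; start sites of a gene are numbered along the chromosome. Mt2 holds 6 MRE cores, Mt1 holds 3 and a loose GRE, 1 Sgk1 promoter also holds 3 cores, and the only full GRE is at the fifth Sgk1 start site.

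Levels are given in CPM, counts scaled to a common library total after TMM normalization, which assumes that most genes do not differ between libraries. Differences are log2 fold changes with their standard error (SE) from edgeR's quasi-likelihood test on 6 libraries at a time, and a gene was called a differentially expressed gene (DEG) at an absolute log2 fold change above 1 with a Benjamini-Hochberg adjusted p below 0.05 over all genes tested. Total counts ranged from 18475118 to 22623578, where 3 counts, taken as the limit of detection, stood for 0.133 to 0.162 CPM before TMM scaling. All 10 monocyte and macrophage markers were detected in every group, with summed levels of 92340 to 129700 CPM in the blood groups and 42990 to 49840 CPM in brain. Microglial markers summed to 146.1 to 210.7 CPM in blood and to 1402, 2125 and 4077 CPM in brain replicates 1, 2 and 3.

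Poststroke brain macrophages carried more Sgk1, Fkbp5, Mt1 and Klf9 RNA than monocytes from the blood of stroke mice. These 4 of the 6 genes that passed the filter on low counts were upregulated DEGs, where 21.0% of the 13189 genes tested were DEGs, 13.1% upregulated and 7.86% downregulated. Tsc22d3 was lower in brain, and Nr3c1, the receptor itself, gave a difference smaller than its SE. Against sham blood, Sgk1, Mt1 and Klf9 were again upregulated in brain and Tsc22d3 was downregulated, so that 4 of 6 genes were DEGs, with 13.4% of the 13020 genes tested called in either direction, 9.75% upregulated and 3.67% downregulated. Between stroke blood and sham blood, 0 of 6 genes were DEGs in edgeR, 1 (Fkbp5) had an unadjusted p below 0.05 and DESeq2 called 1, where edgeR called 1 gene of 12664 (0.00790%). Over all genes, 1581 of the 12664 had an unadjusted edgeR p below 0.05 here, a share to read beside each such count below. The 2 brain comparisons share the same brain libraries and both stroke comparisons share stroke blood, so their values are given side by side and not counted against each other.

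**Figure D2:**
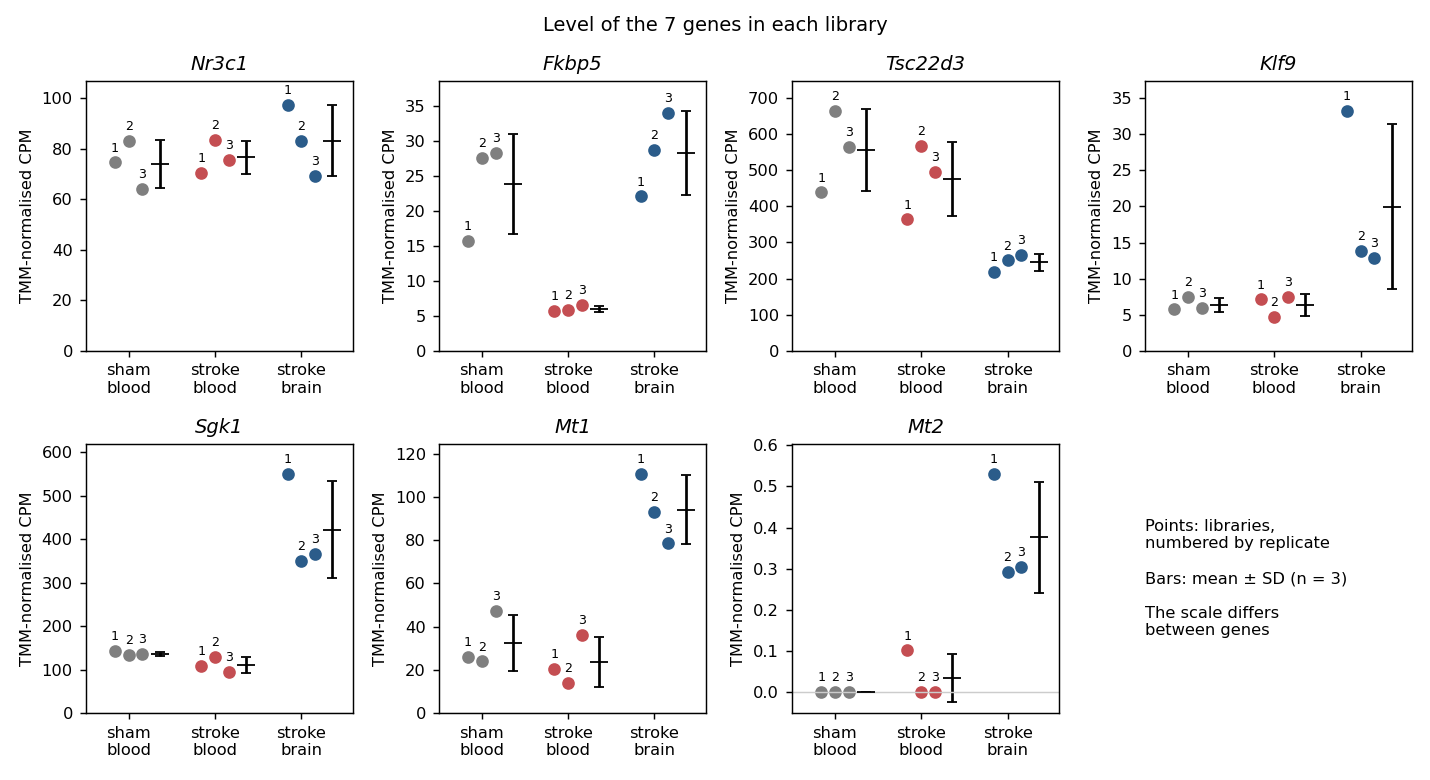
TMM-normalised CPM of the 7 genes (y axis, a scale for each gene) in the 3 groups (x axis), with a numbered point for each library and bars for the mean ± SD (n = 3). Sgk1, Mt1 and Klf9 are higher in each brain library than in any blood library, Tsc22d3 is lower, Fkbp5 is low in stroke blood only, and Nr3c1 overlaps between all groups.

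Nr3c1 (ENSMUSG00000024431, chromosome 18) read 74.7, 83.2 and 64.0 CPM in sham blood replicates 1 to 3, and 70.6, 83.7 and 75.8 CPM in stroke blood. The brain libraries read 97.3, 83.1 and 69.4 CPM. All 3 groups overlapped, brain replicate 1 being the highest library and sham blood replicate 3 the lowest. The log2 fold change was 0.15 (SE 0.18, edgeR adjusted p = 0.572) for brain against stroke blood, 0.19 (SE 0.18, adjusted p = 0.493) for brain against sham blood and 0.05 (SE 0.17, adjusted p = 0.923) for stroke blood against sham blood. The sign of such small differences moved with the scaling: brain against stroke blood was -0.0032 with upper-quartile normalization and 0.30 with library size alone.

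The genes that surround the receptor were followed as a list of 17, of which 15 passed the filter. In brain 2 of the 15 were upregulated and 0 downregulated against either blood group, where 13.1% of all genes were upregulated against stroke blood and 9.75% against sham blood, so the count was near the background, and the median log2 fold change against stroke blood was 0.24, beside 0.06 over all genes tested. The upregulated pair were Ncoa3, a nuclear receptor coactivator, and Abcb1a, an efflux pump that carries steroids among other compounds. Ncoa3 rose from 67.7, 125.5 and 86.5 CPM in stroke blood to 221.7, 232.1 and 203.9 CPM in brain, a log2 fold change of 1.26 (SE 0.22, edgeR adjusted p = 0.00305). Abcb1a rose from between 2.49 and 3.18 CPM to between 8.49 and 12.8 CPM, a log2 fold change of 2.00 (SE 0.31, adjusted p = 0.00155). Against sham blood the Abcb1a call (1.28, adjusted p = 0.0498) was lost with any of 5 libraries left out (adjusted p = 0.0703 to 0.139), and Ncoa3 fell to 0.95 without sham blood replicate 1. With an offset for GC content and length neither was a DEG against sham blood (Ncoa3 0.99, Abcb1a adjusted p = 0.0577). Between the blood groups edgeR called 0 of 15 and DESeq2 0, and 1 had an unadjusted p below 0.05. Both genes share exonic bases with a gene on the opposite strand, so their counts are less certain.

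Hsd11b1, whose enzyme regenerates active glucocorticoid inside cells, lay at 53.5 ± 11.1 CPM in brain, 33.6 ± 12.3 CPM in stroke blood and 45.1 ± 11.3 CPM in sham blood (SD, n = 3), with a log2 fold change of 0.69 between brain and stroke blood that did not pass the test (SE 0.27, edgeR adjusted p = 0.0815). Hsd11b2, which inactivates the hormone, had 0 counts in all 9 libraries, which allows up to 0.162 CPM in the shallowest of them. Fkbp4, the immunophilin that takes the place of Fkbp5 in the receptor complex, differed by 0.24 on the log2 scale between brain and stroke blood (SE 0.14, adjusted p = 0.227). The receptor for mineralocorticoids, Nr3c2, which also binds corticosterone, was close to the limit of detection in blood, with 0 to 6 counts a library, and reached 7, 57 and 46 counts in the brain libraries. It did not pass the filter in any comparison.

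Fkbp5 (ENSMUSG00000024222, chr17:28399094-28517527, minus strand) had the widest difference between the 2 blood groups among the 6 genes tested. Sham blood read 15.7, 27.6 and 28.3 CPM and stroke blood 5.70, 5.84 and 6.49 CPM. Brain read 22.1, 28.7 and 34.1 CPM. Each stroke blood library lay below every other library, the 3 of them within 1.14-fold of each other, while the sham blood and brain libraries overlapped. In brain, Fkbp5 was 4.78-fold higher than in stroke blood, a log2 fold change of 2.26 (SE 0.24, edgeR adjusted p = 0.000225), and it was a DEG under each of 16 alternative fits, which gave 2.01 to 2.41. Against sham blood the brain value differed by 0.26 on the log2 scale (SE 0.27, adjusted p = 0.538).

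Between stroke and sham blood, the Fkbp5 log2 fold change was -1.99 (SE 0.27), or 3.98-fold lower after stroke, and it ranked 3 of 12664 genes by p, but its adjusted p with edgeR was 0.15 and it was not a DEG. It passed with DESeq2 (adjusted p = 2.52e-08), with no filter on low counts (adjusted p = 6.16e-05 in edgeR) and without sham blood replicate 1, the library in which it was lowest of the sham group (-2.22, adjusted p = 0.0101 in edgeR). Over all 16 alternatives the log2 fold change ran from -2.22 to -1.86 and the adjusted p from 2.52e-08 to 0.695. Beside it, all 4 B cell markers were lower in stroke blood at an unadjusted p below 0.05, with sums of 127.0, 238.3 and 227.3 CPM in sham blood and 65.9 to 112.8 CPM in stroke blood. Over all genes, 1581 of 12664 had such a p in either direction. Of 7 T and NK cell markers 4 were lower at that level, while Nkg7, Gzma and Klrb1c were higher (log2 fold changes 0.22, 0.56 and 0.16). The T and NK sums overlapped, at 218.3, 562.7 and 321.5 CPM in sham blood and 797.6, 307.4 and 273.6 CPM in stroke blood. In brain the B cell sums were 50.15, 43.94 and 85.52 CPM and the T and NK sums 550.8, 1070 and 1097 CPM. Of 8 neutrophil markers tested, 4 were lower in stroke than in sham blood at an unadjusted p below 0.05 (S100a8, S100a9, Ltf and Mmp8), with a list median of -1.80 on the log2 scale. The sums over all 9 neutrophil markers listed were 771.1, 939.2 and 3053 CPM in sham blood and 457.6, 797.7 and 669.3 CPM in stroke blood, with overlap. Sham blood replicate 1 also held 1261 CPM of erythroid transcripts against 31280 and 34210 CPM in the other sham libraries. The part of these cells in the Fkbp5 difference was not tested.

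Tsc22d3 (ENSMUSG00000031431, chrX:140539528-140600659, minus strand) went the other way. Sham blood read 438, 664 and 565 CPM, stroke blood 364, 568 and 495 CPM, and brain 219, 250.3 and 265 CPM. Every brain library lay below every blood library, and the blood groups overlapped. Against sham blood it was a downregulated DEG, 2.25-fold lower with a log2 fold change of -1.17 (SE 0.18, edgeR adjusted p = 0.00506), and it stayed a DEG in all 16 alternative fits (-1.31 to -1.03). Against stroke blood the adjusted p passed (0.00532, edgeR) but the log2 fold change of -0.94 (SE 0.19) fell short of the threshold. It crossed that threshold with upper-quartile normalization (-1.08), with a correction for GC content and transcript length (-1.10) and without stroke blood replicate 1 (-1.13). Between the blood groups the log2 fold change was -0.23 (SE 0.22, adjusted p = 0.668).

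Klf9 (ENSMUSG00000033863, chr19:23141226-23168134, plus strand) read 5.72, 7.49 and 5.91 CPM in sham blood and 7.12, 4.64 and 7.43 CPM in stroke blood. The brain libraries read 33.2, 13.9 and 12.9 CPM. All brain libraries were above all blood libraries, and brain replicate 1 was 2.58-fold above the lowest brain library. The log2 fold change was 1.68 against stroke blood (SE 0.41, edgeR adjusted p = 0.013) and 1.66 against sham blood (SE 0.40, adjusted p = 0.0246). Without brain replicate 1 these fell to 1.09 (adjusted p = 0.023) and 1.07 (adjusted p = 0.0248), still DEGs in edgeR. The call was lost without stroke blood replicate 2 (1.45, adjusted p = 0.0587) and, against sham blood, without any 1 of the sham libraries (1.60 to 1.79, adjusted p = 0.0628 to 0.087). Stroke and sham blood did not differ measurably (log2 fold change -0.0047, SE 0.29, adjusted p = 0.996).

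Sgk1 (ENSMUSG00000019970, chr10:21882184-21999903, plus strand), whose promoter carries the full GRE shown above, read 142.5, 134.0 and 135.6 CPM in sham blood and 108.5, 130.3 and 95.5 CPM in stroke blood. The brain libraries read 550.3, 349.4 and 365.6 CPM. The lowest brain library was above the highest blood library, and stroke blood lay just below sham blood with no overlap. Sgk1 was 3.86-fold higher in brain than in stroke blood, a log2 fold change of 1.95 (SE 0.22, edgeR adjusted p = 0.000321), and 3.11-fold higher than in sham blood (1.64, SE 0.20, adjusted p = 0.00236). It was a DEG in all 16 alternative fits of each brain comparison. The gap between stroke and sham blood was -0.31 on the log2 scale (SE 0.16) and did not pass (adjusted p = 0.468).

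Mt1 (ENSMUSG00000031765, chr8:94179082-94180327, plus strand) varied more between the libraries within each blood group than the genes above. It read 26.0, 24.0 and 47.3 CPM in sham blood, 20.6, 14.2 and 36.3 CPM in stroke blood and 110.4, 93.1 and 78.5 CPM in brain. Every brain library exceeded every blood library, and the blood groups overlapped. The log2 fold change of brain was 2.02 against stroke blood (SE 0.32, edgeR adjusted p = 0.00176) and 1.55 against sham blood (SE 0.29, adjusted p = 0.0102), a DEG in all 16 alternative fits of each. Stroke against sham blood gave -0.46 (SE 0.37, adjusted p = 0.625).

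Mt2 (ENSMUSG00000031762, chr8:94172664-94173568, plus strand), whose gene ends 5513 bases before Mt1 begins, was barely counted. It had 0 counts in each sham blood library, 2, 0 and 0 counts in stroke blood and 11, 7 and 7 counts in brain, and it did not pass the filter on low counts. With no filter it was a DEG in brain against sham blood (adjusted p = 0.0422 in edgeR) and not against stroke blood (adjusted p = 0.16), and DESeq2 gave 0.0372 and 0.175. Brain was at least 2.46-fold higher than sham blood, taken at the limit of 3 counts a library. The ratio of brain to stroke blood, 25 counts to 2, was 10.7 (95% exact binomial interval 2.66 to 93.0, counting error only). The count of this gene is uncertain in another way. Of its 588 exonic bases, 432 (73.5%) lie under Gm45774, a gene on the opposite strand with 1 count in all libraries, and the strand setting of the counting was not given, so reads over both genes could have been set aside as ambiguous, and Mt1 and Mt2 are alike in sequence. Its level was therefore not compared with that of Mt1.

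**Figure D3:**
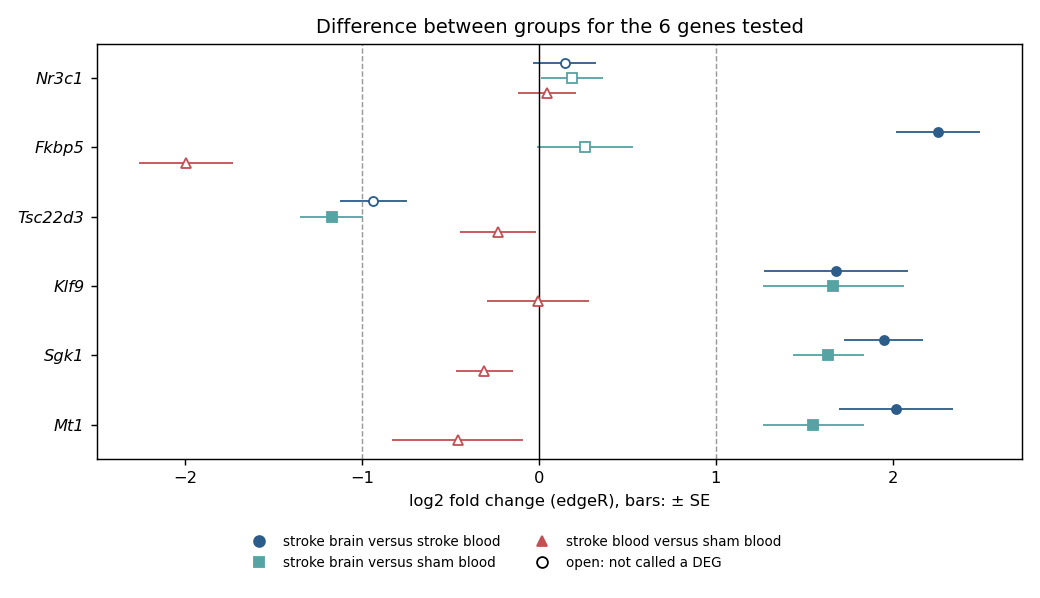
Log2 fold changes of the 6 tested genes (x axis) in 3 comparisons, with bars for ± SE, filled symbols for DEGs and dashed lines at the fold threshold. Fkbp5, Klf9, Sgk1 and Mt1 are filled at 1.68 to 2.26 for brain against stroke blood, and no symbol is filled for stroke against sham blood.

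Levels per kilobase used the joined exons of all annotated transcripts of a gene. For Mt1 these are 1246 bases, its whole span from start to end, so its level per kb may be too low and its rank is uncertain. Joined exons can also be longer than any single transcript for the other genes, so all ranks below hold on these lengths only. On these lengths Tsc22d3 was the most abundant of the genes in blood, at 128.1 ± 26.1 CPM per kb in sham blood and 109.5 ± 23.9 CPM per kb in stroke blood (SD, n = 3). Sgk1 (28.0 ± 0.93 in sham, 22.7 ± 3.59 in stroke blood) and Mt1 (26.0 ± 10.4 and 19.0 ± 9.15) followed and did not differ beyond their spread. Nr3c1 came next at 9.62 ± 1.25 and 9.98 ± 0.859 CPM per kb. Fkbp5 stood above Klf9 in sham blood (2.52 ± 0.751 against 1.32 ± 0.202 CPM per kb) and below it in stroke blood (0.635 ± 0.0447 against 1.33 ± 0.317 CPM per kb). In brain the order changed at the top. Sgk1 reached 86.0 ± 22.8 and Mt1 75.4 ± 12.8 CPM per kb, again within each other's spread on these lengths, and Tsc22d3 came after them at 56.3 ± 5.40 CPM per kb. Nr3c1 (10.8 ± 1.82), Klf9 (4.15 ± 2.38) and Fkbp5 (2.99 ± 0.635 CPM per kb) closed the order, the last pair within the spread of Klf9.

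Other genes that glucocorticoids are known to activate, in a list of 26 of which 21 passed the filter, held DEGs in both directions in brain. Against stroke blood 9 were upregulated and 2 downregulated, with 13.1% and 7.86% of all genes called in these directions, and the median log2 fold change was 0.86 beside 0.06 over all genes. Against sham blood 9 were upregulated and 1 downregulated, with 9.75% and 3.67% of all genes called, and the median was 1.40 beside 0.01. The 9 against sham blood became 6 to 8 whichever library was left out, the fewest without sham blood replicate 2, and 6 with an adjusted p below 0.01. Between stroke and sham blood 0 of 21 were DEGs in edgeR and 7 had an unadjusted p below 0.05, while DESeq2 called 1 higher and 1 lower. Over all genes, 1581 of 12664 had an unadjusted edgeR p below 0.05 in this comparison. The 9 upregulated genes were Angptl4, Cd163, Cdkn1a, Dusp1, Errfi1, Il1r2, Irs2, Nfkbia and Tgm2 in both brain comparisons.

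Tgm2, a transglutaminase, showed the greatest rise of the list, from 19.1, 22.9 and 20.2 CPM in stroke blood to 670.6, 791.9 and 578.3 CPM in brain, a log2 fold change of 5.06 (SE 0.20, edgeR adjusted p = 9.55e-07). Il1r2, a decoy receptor for interleukin-1, rose from 5.80, 6.74 and 9.30 CPM to 279.5, 79.6 and 69.7 CPM, a log2 fold change of 4.33 (SE 0.56, adjusted p = 0.000584). Brain replicate 1 led here as it did for Klf9, and without it the Il1r2 change was 3.38 (adjusted p = 3.42e-05). Markers of neutrophils, which also express Il1r2, moved too. Of 7 tested, 5 were upregulated against stroke blood (Camp, Ltf, Ngp, S100a8 and S100a9) and 1 was downregulated (Mmp8), with a median of 3.54. The sums over all 9 listed, 1010, 835.6 and 1378 CPM in brain replicates 1 to 3, lay above those of stroke blood. They overlapped those of sham blood (771.1 to 3053 CPM), against which Il1r2 was higher by 2.38 on the log2 scale. Replicate 3 had the highest neutrophil sum in brain and replicate 1 the highest Il1r2. Of 4 dendritic cell markers 3 were upregulated against stroke blood, with sums of 105.8 to 154.3 CPM in brain and 38.7 to 74.3 CPM in stroke blood. The part of these cells in the brain values was not tested. Dusp1, the phosphatase that switches off MAP kinases, was the most abundant of the upregulated genes in brain, at 2617, 3542 and 3524 CPM against 677 to 891 CPM in stroke blood (log2 fold change 2.11, SE 0.18, adjusted p = 7.39e-05). Nfkbia, the inhibitor of NF-κB, rose by 1.12 (SE 0.21, adjusted p = 0.00365) and Cd163, a scavenger receptor for haemoglobin, by 2.28 on the log2 scale (SE 0.46, adjusted p = 0.00552). The Nfkbia fold fell below the threshold without brain replicate 1 (0.88), without stroke blood replicate 2 and with upper-quartile normalization (0.96).

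In the other direction, Cebpd, a transcription factor of acute inflammation, fell from 151.5, 154.7 and 214.9 CPM in stroke blood to 49.0, 82.3 and 69.0 CPM in brain, a log2 fold change of -1.36 (SE 0.22, edgeR adjusted p = 0.00202). The brain libraries lay below all blood libraries. Bcl6, a transcriptional repressor, was a DEG against stroke blood alone (-1.15, SE 0.36, adjusted p = 0.0379), and the call was lost without any of the stroke blood libraries, or without brain replicate 2 or 3 (adjusted p = 0.0583 to 0.111). Per1, the clock gene that glucocorticoids induce quickly, read 69.7 CPM in brain replicate 1 but 5.74 and 4.22 CPM in brain replicates 2 and 3, beside 7.70 to 13.8 CPM in stroke blood, and its log2 fold change of 1.43 did not pass (SE 0.90, adjusted p = 0.259). Brain replicate 1 was the highest brain library for Klf9, Sgk1, Mt1, Mt2, Nr3c1, Il1r2 and Per1 and the lowest for Fkbp5 and Tsc22d3, and it also had the fewest microglial transcripts of the 3. Cdkn1a, Cebpd, Irs2, Tgm2, Bcl6 and Dusp1 share exonic bases with a gene on the opposite strand.

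**Figure D4:**
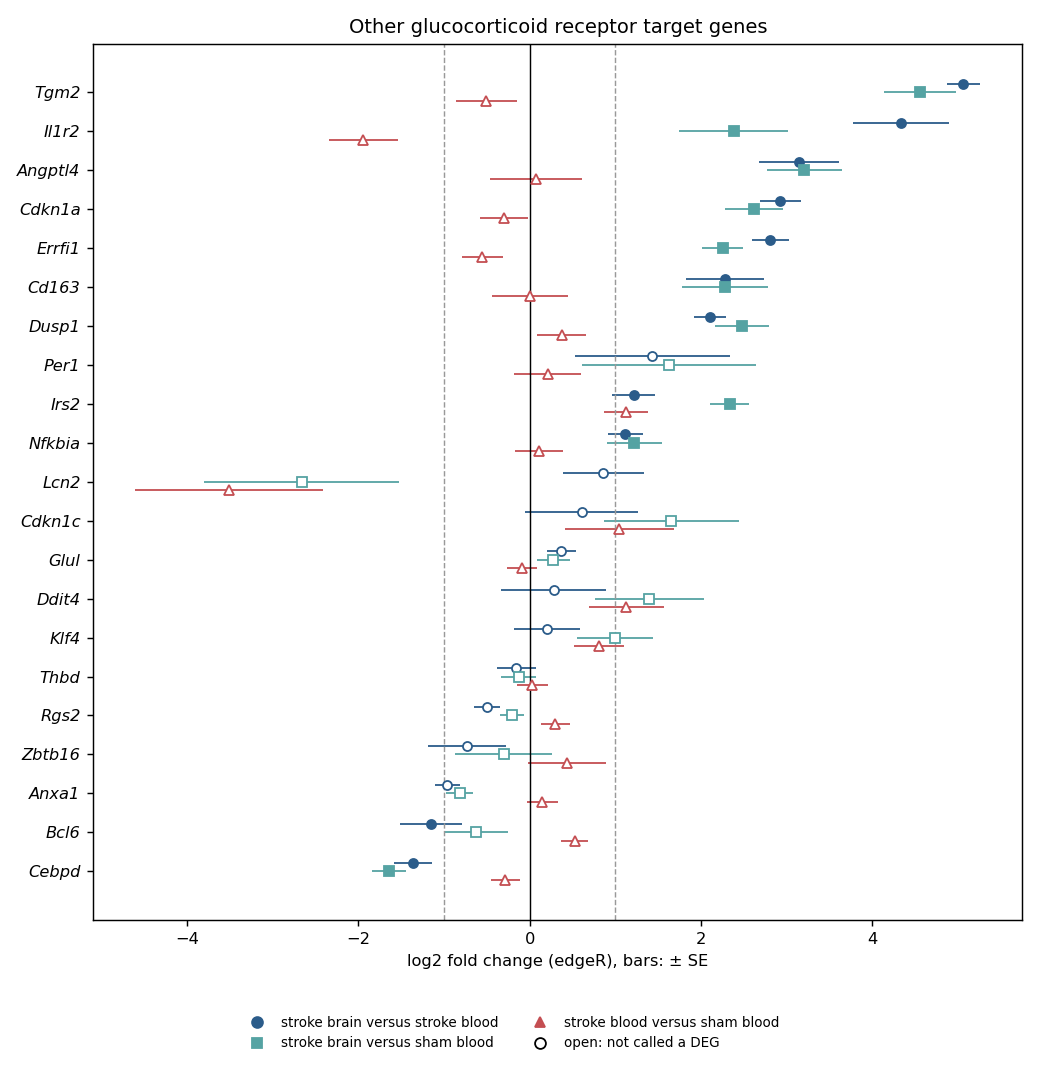
Log2 fold changes (x axis, bars ± SE) of 21 other glucocorticoid receptor target genes in 3 comparisons, ordered by brain against stroke blood, with filled symbols for DEGs. Tgm2 and Il1r2 stand highest for brain against stroke blood, at 5.06 and 4.33, and Cebpd lowest at -1.36, while no symbol is filled for stroke against sham blood.

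The transport of zinc was followed in 27 genes, namely Mtf1, the other metallothioneins Mt3 and Mt4, the Slc30 family, which moves zinc out of the cytoplasm, and the Slc39 family, which brings it in. Of the 20 that passed the filter, 5 were upregulated and 0 downregulated in brain against stroke blood, where 13.1% and 7.86% of all genes were, with a median log2 fold change of 0.71 beside 0.06 over all genes. Against sham blood 7 were upregulated and 0 downregulated, where 9.75% and 3.67% of all genes were, with a median of 0.37 beside 0.01. The count against stroke blood was 5 or 6 with any library left out, but that against sham blood fell to between 2 and 4 whichever of the 6 libraries was left out. With an adjusted p below 0.01 in edgeR the count against sham blood was 0 of 20, and with the replicate number as a block it was 2. Against stroke blood it was 5 in both settings. Mt3 and Slc39a12, in both counts, had 0 counts in blood, passed the filter through brain alone and could only come out higher. A filter on a mean of at least 50 counts leaves them out. It gave 3 of 17 upregulated against stroke blood (1349 of 10324 over all genes) and 5 of 18 against sham blood (1007 of 10295). Between the blood groups 0 of 18 were DEGs in edgeR, 1 had an unadjusted p below 0.05, and DESeq2 called 0. Mtf1, the metal sensor, was not among them, at 16.8, 14.4 and 13.4 CPM in brain and 17.1, 21.4 and 16.2 CPM in stroke blood (log2 fold change -0.27, SE 0.22, adjusted p = 0.395). Slc30a1, the zinc exporter of the cell surface and a known Mtf1 target, was a DEG against sham blood (1.51, SE 0.37, adjusted p = 0.0258, lost without replicate 2 or 3 of either group at 0.0762 to 0.0889) and not against stroke blood (0.79, SE 0.37, adjusted p = 0.137).

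Among the importers, Slc39a1 read 29.6, 155.4 and 165.4 CPM in brain against 14.7, 7.27 and 23.3 CPM in stroke blood, a log2 fold change of 2.97 (SE 0.62, edgeR adjusted p = 0.00626). Slc39a14, which also carries iron and manganese, rose from 2.02, 3.68 and 2.87 CPM to 24.4, 10.9 and 12.8 CPM (2.51, SE 0.40, adjusted p = 0.00182). The brain libraries split differently for these importers, with brain replicate 1 lowest for Slc39a1 and highest for Slc39a14. Slc30a4, an exporter into vesicles, rose by 2.81 (SE 0.58, adjusted p = 0.00625), or by 2.22 without brain replicate 1 (adjusted p = 0.0188). Slc39a8 was upregulated against sham blood (1.79, SE 0.47, adjusted p = 0.034, lost with any of 5 libraries left out) and missed the threshold against stroke blood (2.10, SE 0.72, adjusted p = 0.0531). Mtf1, Slc30a1 and Slc30a4 share exonic bases with a gene on the opposite strand, so their counts are less certain.

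Mt3, a metallothionein best known from the nervous system, and Slc39a12, a zinc importer of brain, had 0 counts in all 6 blood libraries. Mt3 had 12, 12 and 14 counts in the brain libraries and Slc39a12 had 15, 11 and 24. Brain was at least 3.59-fold higher than stroke blood for Mt3 and at least 4.73-fold higher for Slc39a12, taken at 3 counts a library, and the list medians were the same with these genes at their bounds. Astrocyte markers moved with them, summing to 17.2 to 31.3 CPM over 7 genes in brain and to 4.04 to 7.52 CPM in blood, where Aqp4 and Slc1a3 were at 0 in both groups, and their part in these counts was not tested. Mt4 had 0 counts in every library.

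**Figure D5:**
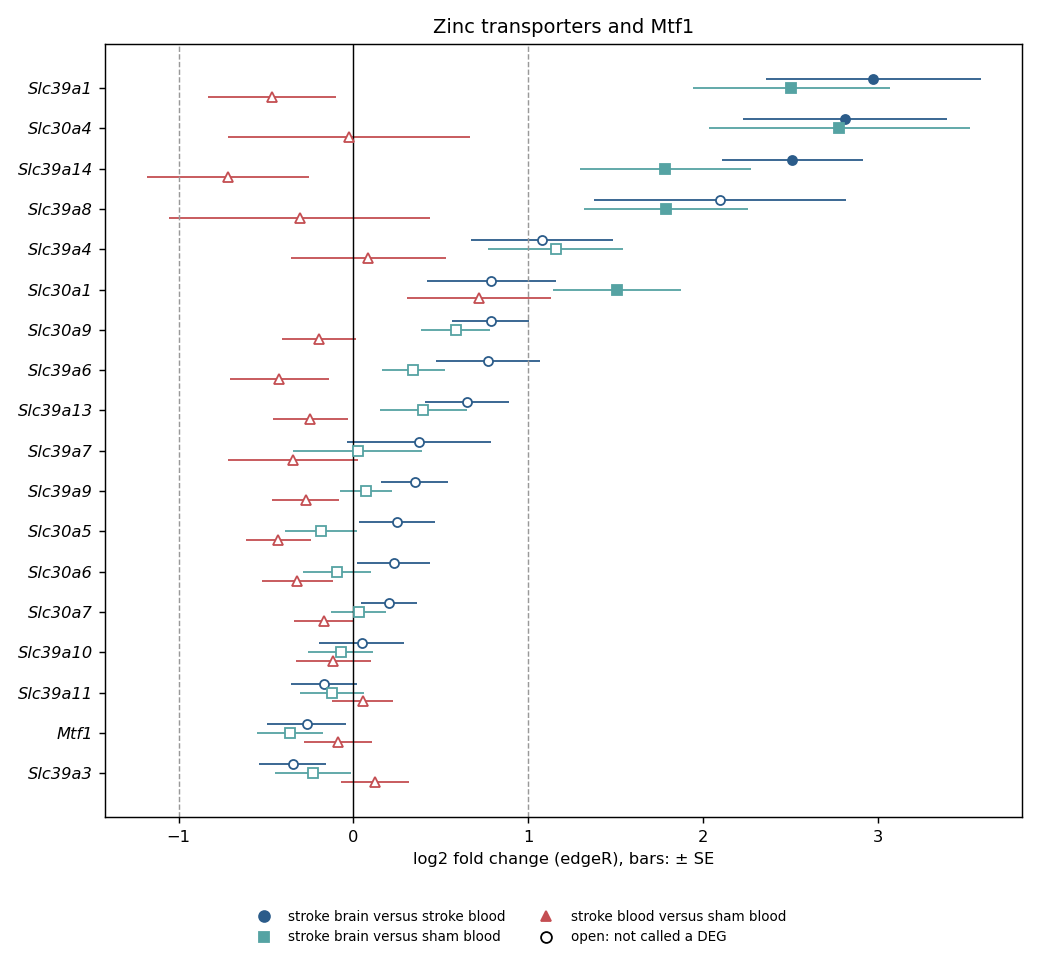
Log2 fold changes (x axis, bars ± SE) of Mtf1 and 17 zinc transporter genes in 3 comparisons, ordered by brain against stroke blood, with filled symbols for DEGs; Mt3 and Slc39a12, at 0 in blood, have no fold and are left out. Slc39a1, Slc30a4 and Slc39a14 stand highest at 2.51 to 2.97 for brain against stroke blood, and Mtf1 lies near 0.

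Relatives of Sgk1, Klf9, Tsc22d3 and Fkbp5, in a list of 16 of which 15 passed the filter, moved in both directions. Against stroke blood 2 were upregulated (Klf13 and Tsc22d2) and 2 downregulated (Klf2 and Tsc22d1), beside 13.1% and 7.86% of all genes, so the upregulated count was near the background. Their median log2 fold change was -0.31 beside 0.06 over all genes. Tsc22d2 rose by 1.66 (SE 0.25, edgeR adjusted p = 0.00135) while Tsc22d1 fell by 2.68 (SE 0.32, adjusted p = 0.000373) and Tsc22d3 was lower as given above. Tsc22d1 read 102.4, 158.6 and 70.3 CPM in stroke blood and 21.3, 15.9 and 13.7 CPM in brain. Among the Krüppel-like factors, Klf13 rose by 1.24 (SE 0.23, adjusted p = 0.00369) and Klf2, known as a restraint on monocyte activation, fell by 1.44 (SE 0.41, adjusted p = 0.025). The Klf2 call was lost without stroke blood replicate 1 or 3 or brain replicate 2 or 3 (adjusted p = 0.0618 to 0.101), and without brain replicate 1 the log2 fold change was -2.06. Sgk3 differed by -0.38 between brain and stroke blood (SE 0.21, adjusted p = 0.203), against 1.95 for Sgk1. Against sham blood 1 relative was upregulated (Tsc22d2) and 2 downregulated (Klf2 and Tsc22d1), which became 0 to 1 and 0 to 3 with 1 library left out, with 0 in both directions without sham blood replicate 3 or brain replicate 2, and between the blood groups 0 of 15 were DEGs with edgeR or DESeq2 and 1 had an unadjusted p below 0.05.

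Several of these genes are also known to respond quickly to stress and handling, so immediate early and heat shock genes were followed as a list of 14. In brain 11 of the 14 were upregulated against stroke blood and 7 against sham blood, beside 13.1% and 9.75% of all genes, with 0 downregulated in either and medians of 2.27 and 2.09 on the log2 scale, beside 0.06 and 0.01 over all genes. With 1 library left out the count against sham blood ran from 4, without sham blood replicate 2 or 3, to 11, without sham blood replicate 1. Their summed level was 11570 to 12560 CPM in brain, 3128 to 4338 CPM in stroke blood and 2156 to 5335 CPM in sham blood, with no overlap between brain and blood. Atf3, for example, rose by 3.33 against stroke blood (SE 0.17, edgeR adjusted p = 4.85e-06) and Fos by 1.61 (SE 0.29, adjusted p = 0.00357). Between the blood groups edgeR and DESeq2 called 0 of 14, and 1 had an unadjusted p below 0.05. The part of the dissociation in the higher Sgk1, Klf9, Mt1 and Dusp1 of brain was not tested. For Fkbp5, and for Tsc22d3, which was lower in brain than in blood, the brain values followed the order of the microglial sums, lowest in replicate 1 and highest in replicate 3. Those of Mt1, Klf9 and Nr3c1 ran in the reverse order, and those of Sgk1 (550.3, 349.4 and 365.6 CPM) and Mt2 in neither. With 3 libraries few orders are possible, so no conclusion is drawn from these. The part of microglia was not tested.

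As a description over the 9 libraries, which share tissue and procedure within a group, the 3 genes with the most similar pattern to each member were taken by Pearson's r of log2 CPM among 7678 genes with a mean of at least 10 CPM. Sgk1 had the closest neighbours, Ets2 (r = 0.992), Skil (0.989) and Rgs1 (0.986). For Mt1 they were Dmkn (0.979), Slc16a6 (0.970) and Snx18 (0.958), and for Tsc22d3 they were Rsrp1 (0.974), Fam222b (0.970) and Rassf4 (0.963). Klf9 was nearest to Ccnl1 (0.971), Cxcr4 (0.963) and Ptprs (0.962). Fkbp5, low in stroke blood alone, was nearest to Ap5s1 (0.954), Carnmt1 (0.9501) and H2-Ob (0.943). Nr3c1 had the loosest neighbours, Nfkbie (0.850), Rpa2 (0.844) and Vps37b (0.841), and Mt2 was too low to be compared.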

How the data were processed

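Counts from 9 bulk RNA-seq libraries were analysed. After SMART-Seq HT amplification and Nextera XT tagmentation, the authors aligned paired reads to GRCm38 using HISAT2 and assigned them to genes using HTSeq (versions and strand setting not given in the sources used here), and the deposited values are raw counts without normalization. Symbols, positions and exonic lengths came from GENCODE M21, which matched 53620 of 53801 identifiers. Each pair of groups was compared by the quasi-likelihood test of edgeR 4.0.16 under R 4.3.3, with TMM scaling, filterByExpr and p adjusted over all genes tested, after a test on simulated data. The authors used DESeq2, which was an alternative here (version 1.42.0), with other filters, normalizations, covariates and thresholds and with each library left out. No exact permutation test was used for single genes, since its smallest two-sided p for groups of 3 is 0.1. The 7 genes and all lists were chosen with earlier results of these data known. The text names the 7 genes, list genes that were DEGs, 8 list genes tied to them (Mtf1, Mt3, Hsd11b1, Fkbp4, Per1, Dusp1, Slc30a1 and Slc39a14) and the 3 nearest patterns. Hsd11b2, Nr3c2, Sgk3, Mt4 and genes of the marker lists were named after their values were seen.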

Additional observations from a re-analysis of the deposited data

How the results depend on the processing

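Brain against stroke blood gave 4 DEGs among the 7 genes and 3 to 5 over 18 alternatives, and brain against sham blood gave 4 and 2 to 5. With an adjusted p below 0.01 these counts were 3 and 2, and the DEGs over all genes fell from 2771 to 1793 and from 1748 to 792. Leaving out 1 library at a time gave 2258 to 3014 DEGs against stroke blood, and 1146 (without sham blood replicate 3) to 1883 against sham blood. Between stroke and sham blood, the 0 DEGs among the 7 became 1 (Fkbp5) with DESeq2 or with no filter, where 1 DEG over all genes became 135 and 160. Leaving out 1 library gave 0 to 1 among the 7 and 0 to 16 over all genes, both highest without sham blood replicate 1. There were 0 over all genes with an adjusted p below 0.01 or with an offset for GC content and length.

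Signs changed only for differences near 0. Nr3c1 in brain against stroke blood was 0.15, and became -0.0032 with upper-quartile normalization, -0.086 with the offset for GC content and length and -0.0967 with the replicate block and that offset. In stroke against sham blood it was 0.0458, and -0.0569 to 0.1341 with 1 library left out. Klf9 in stroke against sham blood was -0.0047. It became 0.0212 with a mean of at least 50 counts, 0.0069 with RLE normalization, 0.0754 with upper-quartile normalization, 0.031 with all 9 libraries in a single fit, 0.1346 with the offset, 0.1065 with the replicate block and offset, and -0.1323 to 0.1527 with 1 library left out. The cause of these changes was not tested. Library size alone moved the median of all genes in brain against stroke blood from 0.06 to 0.22 and upper-quartile normalization to -0.09, and the 4 upregulated genes kept their calls under both.

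Samples with the same replicate number did not vary together (correlations of their deviations from the group means of -0.073 to 0.075), so the numbers were not taken as pairs. With the replicate block, 4, 0 and 4 of the 7 genes were DEGs in brain against stroke blood, stroke against sham blood and brain against sham blood, and 2634, 1 and 1571 of all genes. With 3 libraries a group, p-values measure the spread between mice in blood and between pools in brain, and Mt2 and the brain-only genes are limited by their low counts.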
